A study of Homo sapiens with 12 samples.

Results

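The genes followed here are 8 human genes for nuclear proteins that carry long acidic stretches, most of them chaperones of histones or other partners of chromatin. They are nucleolin (NCL), nucleophosmin (NPM1), SET, ANP32A, ANP32B, prothymosin alpha (PTMA), HMGB1 and HMGB2. The genes were chosen by name and coding length, not by any measured value, though with earlier results of these data known. Each was followed through 1 transcript, so that 8 of 100283 coding transcripts in the monosome tables and 8 of 93916 in the disome and RNA-seq tables are described. All cells were wild-type HEK293T Flp-In, a line derived from human embryonic kidney that holds a landing site for transgenes. They were exposed for 2 h to DMSO, the solvent, or to girolline, a natural product of a marine sponge, at 1 or 10 µM. Each of 3 kinds of library was made from DMSO in duplicate and from 1 and 10 µM girolline in 1 library per dose (12 libraries). RNA-seq of poly(A) RNA measured mRNA, monosome footprints measured the fragments protected by single ribosomes, and disome footprints measured the longer fragments covered by a ribosome and its close neighbour.

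Acidic stretches are runs of aspartate and glutamate, and in histone chaperones they bind the basic surfaces of histones and keep them from other contacts. A ribosome that waits on a slow stretch of coding sequence can be met by the one behind it, and nuclease digestion of such a pair leaves a disome footprint. The series title names eIF5A as the factor whose activity girolline modulates. In yeast, eIF5A binds slow ribosomes and speeds bond formation at runs of proline and at some motifs with aspartate. Protein sequences were not analysed here, so the position and length of the acidic stretches are not set beside the values.

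Each gene was identified by its monosome transcript and by the row of the disome and RNA-seq tables paired with it. NCL was transcript ENST00000322723.9, with 710 residues, from a gene at chr2:231453531-231464484 on GRCh38.p14. NPM1 was ENST00000296930.9, with 294 residues, from chr5:171387116-171410900. SET was ENST00000372692.8, with 290 residues, from chr9:128683424-128696396. These transcripts differ widely in length, and every count is of reads in the coding region.

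ANP32A was ENST00000465139.6, with 249 residues, from chr15:68778535-68820895, and ANP32B was ENST00000339399.5, with 251 residues, from chr9:97983341-98015943. HMGB1 was ENST00000341423.10, with 215 residues, from chr13:30456704-30617597, and HMGB2 was ENST00000296503.10, with 209 residues, from chr4:173331376-173334358. PTMA, the shortest, was ENST00000341369.11, with 111 residues, from chr2:231708525-231713551. Several of these genes have near-identical processed copies in the genome: RefSeq names 50 pseudogenes each for NPM1 and HMGB1, 19 for SET, 15 for PTMA, 3 for ANP32B, 2 for NCL and 1 each for ANP32A and HMGB2. How reads matching several places were counted is not given in the sources used here, so levels of NPM1, HMGB1, SET and PTMA are uncertain to that extent. Isoforms of 1 gene share reads as well. A second NPM1 row of the same length held 4134, 6239, 8139 and 9748 disome counts in DMSO 1, DMSO 2, 1 µM and 10 µM, where the row used held 4213, 6367, 8192 and 9796, and its mRNA counts were identical.

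Libraries held 28424272 to 42194871 counts in all for RNA-seq, 21570489 to 38074691 for monosomes and 3091715 to 5769026 for disomes. The smallest count behind any value was 143 disome footprints of ANP32B in DMSO 1, with a 95% Poisson interval of 120.5 to 168.5 that covers counting error only. The DMSO libraries of each kind differed by more than sampling noise, with a chi-square per degree of freedom of 9.17 for RNA-seq, 2.46 for monosomes and 4.14 for disomes. Whether the DMSO libraries are separate cultures is not in the labels, so the p-values cover the spread between these libraries alone, which may be technical, and single treated libraries are taken to vary as the DMSO pair does. All values are relative to the rest of a library, and in bulk libraries fewer cells and less RNA per cell cannot be told apart. Markers of the cell line were not analysed here.

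Levels were compared between genes as RPKM, the scaled count per kilobase of the coding region counted. NPM1, a nucleolar chaperone of histones and ribosomal proteins, had the highest level in every kind of library, at 1430 ± 132 in disome, 819 ± 17.7 in monosome and 845 ± 17.2 RPKM in mRNA libraries under DMSO (SD, n = 2 each). ANP32B, a histone chaperone of the nucleus, had the lowest, at 64.0 ± 4.99, 71.6 ± 3.62 and 26.6 ± 1.56 RPKM in the same kinds. The order between these ends differed by kind of library. In disome libraries HMGB1, PTMA, NCL, SET, ANP32A and HMGB2 followed NPM1 in that order, at 536, 286, 183, 156, 121 and 88.1 RPKM on average under DMSO. In monosome libraries the order was PTMA, HMGB1, NCL, SET, ANP32A and HMGB2, at 518, 315, 200, 194, 140 and 128 RPKM. In mRNA libraries it was PTMA, SET, HMGB1, HMGB2, NCL and ANP32A, at 585, 322, 268.5, 154.5, 149 and 98.2 RPKM. The DMSO values of neighbours in these orders did not overlap, except for NCL and SET in monosome libraries, where NCL had 200.3 and 199.5 RPKM and SET 208.8 and 179.9.

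Disome footprints of SET, HMGB2 and ANP32B rose with girolline to 2.27 to 3.14 times their DMSO level at 10 µM, those of NPM1 rose to 1.40 times, and those of HMGB1, the relative of HMGB2, fell. At 10 µM monosome footprints moved less than disome footprints, except for NCL (log2 fold change -0.40 against -0.35) and ANP32A (-0.34 against -0.25). No mRNA passed the test at either dose. By the quasi-likelihood test of edgeR (Benjamini-Hochberg adjustment, false discovery rate of 0.05), disome footprints of 4 of 8 genes were higher and 1 of 8 lower at 10 µM, where 20.8% of 34606 transcripts tested were higher and 14.9% lower. At 1 µM disome footprints of 4 of 8 genes were higher, against 5.4% of transcripts tested, and 0 of 8 lower, against 1.68%; 0 of 8 were lower at an unadjusted p under 0.05 or by DESeq2 either. Monosome footprints of 3 of 8 genes were higher at 10 µM and 5 of 8 lower, against 16.5% and 15.7% of 55409 transcripts, and at 1 µM 1 of 8 was higher and 1 of 8 lower, against 1.03% and 0.7%. All 8 genes passed a filter of 10 CPM, which left out transcripts with few counts. Larger shares of transcripts were called there. Disome footprints of 5 genes were then higher and 1 lower at 10 µM, against 3675 and 3036 of 12986 transcripts. At 1 µM 4 were higher and 0 lower, against 1408 and 463. Monosome footprints of 3 were then higher and 4 lower at 10 µM, against 3743 and 3542 of 13934. At 1 µM 1 was higher and 0 lower, against 594 and 300.

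For mRNA, 0 of 8 genes passed at 10 µM, where 0.537% of 56229 transcripts were higher and 0.571% lower, and 0 of 8 had an unadjusted p under 0.05 or were called by DESeq2. At 1 µM the test called 0 of 8 genes and 0% of transcripts in either direction; 557 transcripts had an unadjusted p under 0.05, PTMA among the 8 genes, and DESeq2 called 0. The coefficient of variation in the fit was 11.8% for mRNA, against 10.3% for disomes and 3.86% for monosomes, so a change of one size is harder to call in mRNA than in monosomes. The median log2 fold change of the 8 genes at 10 µM was 0.44 in disome, -0.25 in monosome and -0.02 in mRNA libraries, where that of all transcripts tested was -0.02, 0.01 and -0.01. At 1 µM the medians of the 8 genes were 0.45, -0.01 and -0.18, against -0.01, -0.003 and -0.01. The share of a library's counts that lay in the 8 rows together was 0.254% and 0.245% in the disome libraries under DMSO, 0.308% at 1 µM and 0.310% at 10 µM. The same share in monosome libraries was 0.189% and 0.180% under DMSO and 0.175% at both doses.

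**Figure D1:**
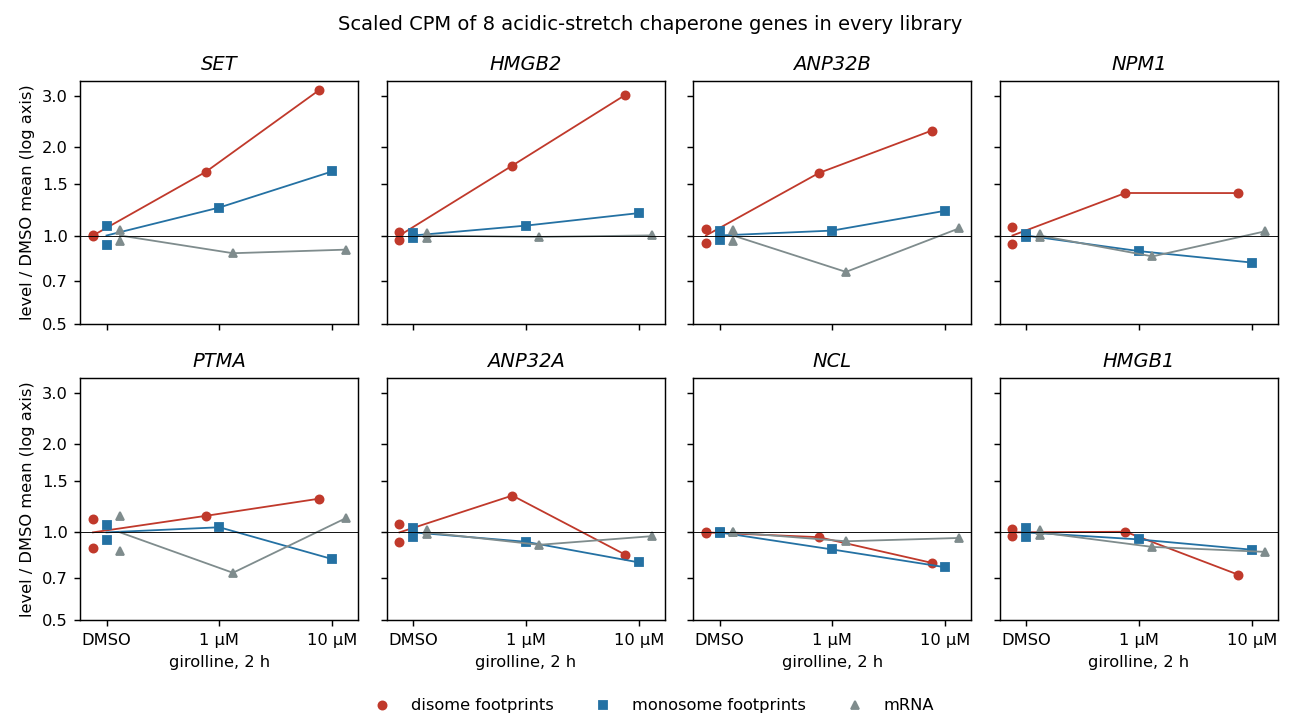
Level of each of the 8 genes in every library divided by the mean of the 2 DMSO libraries of its kind (log axis), by dose of girolline; points are libraries, circles are disome, squares monosome and triangles mRNA values, and lines join the means. Disome levels of SET, HMGB2 and ANP32B lie above both DMSO libraries at 1 µM and higher still at 10 µM, where mRNA levels are between 0.858 and 1.12 times the DMSO level in the fits.

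SET, an inhibitor of protein phosphatase 2A and a histone chaperone that masks histone tails from acetylation, had the largest fitted changes of the 8 at 10 µM in both kinds of footprint. Its disome footprints stood at 137 and 135 scaled CPM (counts relative to the library total after TMM scaling) in the DMSO libraries, 224 at 1 µM and 426 at 10 µM. Both treated libraries lay above both DMSO libraries, and the DMSO values nearly coincided. The fitted log2 fold change was 1.65 ± 0.15 (SE; adjusted p = 5.58e-25) at 10 µM and 0.72 ± 0.16 (adjusted p = 0.000311) at 1 µM. Monosome footprints of SET moved the same way, with 176 and 152 scaled CPM under DMSO, 204 at 1 µM and 271 at 10 µM. The monosome log2 fold change was 0.73 ± 0.06 (adjusted p = 8.97e-19) at 10 µM and 0.32 ± 0.06 (adjusted p = 0.000453) at 1 µM. The mRNA of SET did not pass the test: it had 251 and 273 scaled CPM under DMSO, 228 at 1 µM and 234 at 10 µM. Its mRNA log2 fold change was -0.16 ± 0.16 at 10 µM (adjusted p = 0.805). The SET calls at 10 µM held in all 8 alternative fits of both footprint kinds, while at 1 µM the disome call was lost with DESeq2 (adjusted p = 0.0654) and the monosome call with DESeq2 (adjusted p = 0.3) and in a joint fit of 12 libraries (adjusted p = 0.942).

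ANP32A and ANP32B are related leucine-rich proteins with acidic tails; ANP32A acts with SET on histones, and both serve influenza polymerase as host factors. ANP32B had 45.8 and 51.1 scaled CPM of disome footprints under DMSO, 79.2 at 1 µM and 110.6 at 10 µM. All its treated disome values exceeded both DMSO values, with a log2 fold change of 1.18 ± 0.19 (adjusted p = 1.34e-08) at 10 µM and 0.70 ± 0.20 (adjusted p = 0.0111) at 1 µM, where DESeq2 did not call it (adjusted p = 0.285). ANP32A had 96.9 and 84.1 scaled CPM under DMSO, 121 at 1 µM and 75.95 at 10 µM. The 1 µM library thus lay above both DMSO libraries and the 10 µM library below both, and neither change passed the test, at a log2 fold change of 0.42 ± 0.18 (adjusted p = 0.162) at 1 µM and -0.25 ± 0.19 (adjusted p = 0.321) at 10 µM. Set against each other, the 10 µM library was lower than the 1 µM library for ANP32A, at a log2 fold change of -0.67 ± 0.22 (adjusted p = 0.0212), which DESeq2 did not call (adjusted p = 0.202).

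Monosome footprints separated the ANP32 genes in the same direction at 10 µM. ANP32B had 53.9 and 50.1 scaled CPM under DMSO, 54.1 at 1 µM and 63.2 at 10 µM, and its monosome log2 fold change was 0.28 ± 0.07 (adjusted p = 0.00078) at 10 µM. ANP32A had 104.3 and 96.7 scaled CPM under DMSO, 93.3 at 1 µM and 79.4 at 10 µM, and its monosome log2 fold change was -0.34 ± 0.07 (adjusted p = 1.82e-05) at 10 µM. In the joint fit of 12 libraries, neither monosome call was kept, at adjusted p = 0.175 for ANP32B and 0.0716 for ANP32A, and DESeq2 did not keep that of ANP32B (adjusted p = 0.161). The mRNA of both genes kept near the DMSO level at 10 µM: ANP32B had 19.3 and 17.8 scaled CPM under DMSO, 13.9 at 1 µM and 19.6 at 10 µM. ANP32A mRNA had 68.8 and 66.7 scaled CPM under DMSO, 61.5 at 1 µM and 65.8 at 10 µM. In the joint fit ANP32A disome footprints at 1 µM passed the test with a log2 fold change of 0.46 (adjusted p = 0.0476), and also without the first disome DMSO library, at 0.54 (adjusted p = 0.0427), but not without the second, at 0.36 (adjusted p = 0.307).

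HMGB1 and HMGB2 bend DNA with a pair of HMG boxes and end in acidic tails, and HMGB1 also acts as an alarm signal once it leaves the cell. The disome footprints of HMGB2 stood at 53.8 and 57.2 scaled CPM under DMSO, 96.2 at 1 µM and 168 at 10 µM. Those of HMGB1 stood at 337 and 357 under DMSO, 349 at 1 µM and 249 at 10 µM. HMGB2 lay above both DMSO libraries at both doses, while HMGB1 lay between them at 1 µM and below both at 10 µM. For HMGB2 the disome log2 fold change was 1.59 ± 0.18 (adjusted p = 1.09e-16) at 10 µM and 0.79 ± 0.19 (adjusted p = 0.00147) at 1 µM. For HMGB1 it was -0.48 ± 0.15 (adjusted p = 0.006425) at 10 µM and 0.01 ± 0.15 (adjusted p = 0.989) at 1 µM. The 95% intervals at 10 µM were 1.24 to 1.95 for HMGB2 and -0.78 to -0.18 for HMGB1, so they lie on opposite sides of 0.

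Monosome footprints of HMGB2 were 75.5 and 78.0 scaled CPM under DMSO, 83.0 at 1 µM and 91.6 at 10 µM. Their log2 fold change was 0.25 ± 0.07 (adjusted p = 0.00124) at 10 µM. Those of HMGB1 were 202 and 187 under DMSO, 184 at 1 µM and 170 at 10 µM. Their log2 fold change was -0.20 ± 0.06 (adjusted p = 0.00734) at 10 µM. Neither monosome call was kept by DESeq2, at adjusted p = 0.137 for HMGB2 and 0.127 for HMGB1, or in the joint fit, at adjusted p = 0.193 and 0.305 in turn. HMGB2 mRNA was the steadiest of the 8, with 86.2 and 90.0 scaled CPM under DMSO, 87.1 at 1 µM and 88.2 at 10 µM. HMGB1 mRNA had 154 and 162 under DMSO, 141 at 1 µM and 135 at 10 µM, below both DMSO libraries at both doses without passing the test (adjusted p = 0.711 at 10 µM). The disome call of HMGB1 was lost with DESeq2 (adjusted p = 0.141), whereas that of HMGB2 at 10 µM held in all 8 alternative fits. At 1 µM DESeq2 did not call HMGB2 disome footprints (adjusted p = 0.123).

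NCL and NPM1 are abundant proteins of the nucleolus; NCL acts in rRNA transcription and processing, and NPM1 in ribosome assembly and histone storage. NPM1 had 1348 and 1183 scaled CPM of disome footprints under DMSO, 1768 at 1 µM and 1767 at 10 µM. The treated libraries lay above both DMSO libraries and nearly coincided, with a log2 fold change of 10 µM over 1 µM of -0.0004 and a 95% interval of -0.25 to 0.25. The log2 fold change against DMSO was 0.48 ± 0.11 at both doses, with adjusted p = 7.97e-05 at 10 µM and adjusted p = 0.000578 at 1 µM, and DESeq2 kept neither call (adjusted p = 0.108 and adjusted p = 0.261 in turn). NCL had 388 and 393 scaled CPM under DMSO, 376 at 1 µM and 307 at 10 µM. NCL disome footprints were thus below both DMSO libraries at both doses, and the log2 fold change of -0.35 ± 0.15 at 10 µM just missed the threshold (adjusted p = 0.0517). It passed with DESeq2's size factors (adjusted p = 0.0458), with a filter of 1 count (adjusted p = 0.04) and in a joint fit of 12 libraries (adjusted p = 0.0332), and there without the first disome DMSO library (adjusted p = 0.0325) or the second (adjusted p = 0.0447).

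Monosome footprints of both nucleolar genes fell at 10 µM. NPM1 had 711 and 690 scaled CPM under DMSO, 620 at 1 µM and 566 at 10 µM, and its log2 fold change was -0.31 ± 0.05 (adjusted p = 1.625e-06) at 10 µM. NCL had 421 and 419.5 scaled CPM under DMSO, 367 at 1 µM and 319.5 at 10 µM, and its log2 fold change was -0.40 ± 0.06 (adjusted p = 6.85e-09) at 10 µM and -0.19 ± 0.06 (adjusted p = 0.0482) at 1 µM. The 1 µM call of NCL held in 2 of 8 alternative fits only: it was lost with DESeq2 (adjusted p = 0.0806), a filter of 10 CPM (adjusted p = 0.0764), identical rows kept apart (adjusted p = 0.0749) and in the joint fit (adjusted p = 1), with or without either monosome DMSO library. For NPM1 the disome and monosome changes therefore ran in opposite directions, and for NCL in the same one. NPM1 mRNA had 687 and 707 scaled CPM under DMSO, 591 at 1 µM and 721 at 10 µM. NCL mRNA had 309 in each DMSO library, 288 at 1 µM and 295.5 at 10 µM. Without either monosome DMSO library, in the joint fit, the 10 µM monosome calls were lost for NCL (adjusted p = 0.19 and 0.196) and NPM1 (adjusted p = 0.358 and 0.276), and likewise for each of the other genes but SET, with adjusted p up to 0.772 for HMGB1. The monosome fit of 4 libraries took its spread from DMSO libraries that differed little, with a coefficient of variation of 3.86%, against 9.11% in the joint fit.

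PTMA, a small disordered protein that is acidic over most of its length and carries linker histone H1, had 107 and 85.3 scaled CPM of disome footprints under DMSO, 109.6 at 1 µM and 125 at 10 µM. Its monosome footprints were 168 and 149 under DMSO, 165 at 1 µM and 128.5 at 10 µM. The treated disome libraries lay above both DMSO libraries, and the monosome library at 10 µM below both. Disome footprints had a log2 fold change of 0.39 ± 0.18 at 10 µM (adjusted p = 0.077), and monosome footprints one of -0.30 ± 0.06 (adjusted p = 6.3e-05), which was not called in the joint fit (adjusted p = 0.13). The DMSO libraries disagreed more for PTMA mRNA than for any other of the 8: it had 183 and 140 scaled CPM under DMSO, 117 at 1 µM and 180.5 at 10 µM. In the joint fit without the first RNA-seq DMSO library, PTMA mRNA was called higher at 10 µM, at a log2 fold change of 0.37 (adjusted p = 0.017), and without the second the value was -0.01. At 1 µM it was called lower without the second, at -0.64 (adjusted p = 9.42e-05). PTMA disome footprints at 10 µM passed with a filter of 10 CPM, at 0.46 (adjusted p = 0.0355), and in the joint fit, at 0.41 (adjusted p = 0.0345). There they also passed without the first disome DMSO library, at 0.56 (adjusted p = 0.022), but not without the second, at 0.21 (adjusted p = 0.465). With 112 codons including the stop, PTMA is also the gene whose counts cover the coding region least evenly across kinds: 92 codons for mRNA, 102 for monosomes and 112 for disomes.

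**Figure D2:**
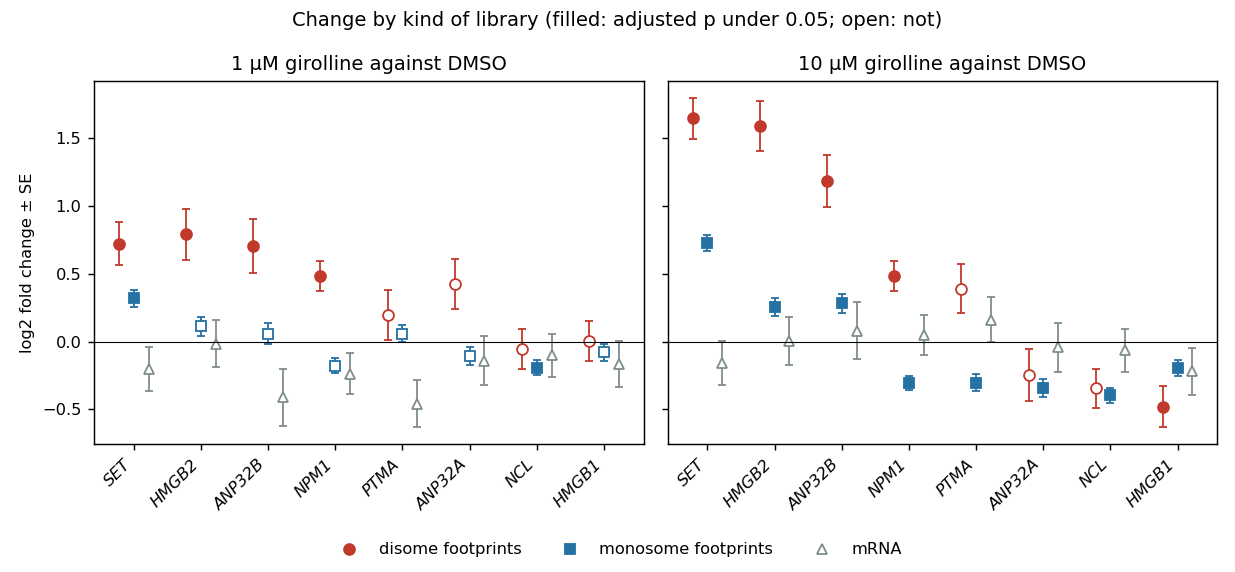
Fitted log2 fold change ± SE of each gene in disome, monosome and mRNA libraries, at 1 µM (left) and 10 µM (right) girolline against DMSO; filled symbols have an adjusted p under 0.05. At 10 µM the disome change is higher than the monosome change for every gene but HMGB1, by little for NCL and ANP32A, and all mRNA symbols are open.

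The number of disome footprints per monosome footprint was compared next, since it sets adjoining ribosomes against ribosomes footprinted singly on the same transcript. It rose at 10 µM for 5 of 8 genes, against 12.2% of 49278 transcripts tested, and fell for 0 of 8, against 6.52%. With the filter of 10 CPM, 5 of 8 were higher and 1, HMGB1, lower (adjusted p = 0.028), against larger shares, 2759 and 2113 of 10733 transcripts. The gain was largest for HMGB2, at a log2 change of 1.33 ± 0.16 (adjusted p = 6.38e-10), and then SET, at 0.92 ± 0.15 (adjusted p = 1.22e-06). ANP32B gained 0.89 ± 0.17 (adjusted p = 2.7e-05), NPM1 0.79 ± 0.13 (adjusted p = 1.14e-06) and PTMA 0.70 ± 0.16 (adjusted p = 0.00073). These were tests of the interaction of kind and dose in edgeR over 8 libraries. The fit took 1 spread over both kinds, with a coefficient of variation of 5.27%, against 10.3% for disomes alone. An SE of the ratio can therefore be below that of the disome change itself, as for HMGB2 at 0.160 against 0.1815. The p-values of this ratio may thus be too small, here and at 1 µM. NCL, at 0.05 ± 0.14, ANP32A, at 0.10 ± 0.17, and HMGB1, at -0.29 ± 0.14 (adjusted p = 0.163 and an unadjusted p of 0.0483 in edgeR's fit of all transcripts), did not pass. The median over the 8 genes was 0.75, where that of all transcripts tested was -0.02. DESeq2 called 0 of 8 genes lower, and it kept the calls other than that of PTMA (adjusted p = 0.0636).

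At 1 µM the same ratio rose for NPM1, HMGB2, ANP32B and ANP32A, 4 of 8 genes against 2.83% of transcripts, and fell for 0 of 8, against 0.455%. With the filter of 10 CPM, 3 of 8 were higher and 0 lower, against larger shares, 820 and 213 of 10733 transcripts. The log2 change was 0.69 ± 0.13 for NPM1 (adjusted p = 0.000145), 0.70 ± 0.17 for HMGB2 (adjusted p = 0.00721), 0.66 ± 0.18 for ANP32B (adjusted p = 0.0181) and 0.56 ± 0.16 for ANP32A (adjusted p = 0.0358). SET, at 0.43 ± 0.15, did not pass (adjusted p = 0.114). DESeq2 kept none of the 4 calls, with adjusted p between 0.0501 for NPM1 and 0.317 for ANP32A. The joint fit kept those of NPM1 and HMGB2, and there none was kept without either of the monosome DMSO libraries. Without the first of these the log2 change was 0.67 for NPM1 and 0.51 for ANP32A, and without the second 0.72 and 0.62. At 10 µM the call of PTMA was lost there without the first monosome DMSO library, at 0.62 (adjusted p = 0.11), and without the second disome one, at 0.52 (adjusted p = 0.166).

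The ratio also placed the genes apart in cells given DMSO. Each DMSO value divides libraries of equal number, and the labels do not say that these belong together. The 2 values given per gene therefore do not measure the spread under DMSO. Relative to the median of 10008 transcripts with at least 10 scaled CPM, NPM1 had 1.92 and 1.75 times as many disome footprints per monosome footprint in the DMSO libraries, 2.73 times at 1 µM and 2.95 times at 10 µM. HMGB1 had 1.70 and 1.95 times as many under DMSO, 1.82 at 1 µM and 1.38 at 10 µM. In the mean of the DMSO libraries these ratios exceeded those of 88.7% of the transcripts for NPM1 and 88.4% for HMGB1. PTMA stood low, above 16.8% of transcripts, with 0.647 and 0.585 times the median under DMSO, 0.636 at 1 µM and 0.921 at 10 µM. HMGB2 had 0.722 and 0.750 under DMSO, 1.11 at 1 µM and 1.73 at 10 µM. At 10 µM it lay above HMGB1, which exceeded it in both DMSO libraries. SET had 0.789 and 0.909 under DMSO, 1.05 at 1 µM and 1.48 at 10 µM, and ANP32B 0.862 and 1.04 under DMSO, 1.40 at 1 µM and 1.65 at 10 µM. ANP32A and NCL stayed between 0.8895 and 0.981 in all libraries, apart from ANP32A at 1 µM, with 1.24.

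**Figure D3:**
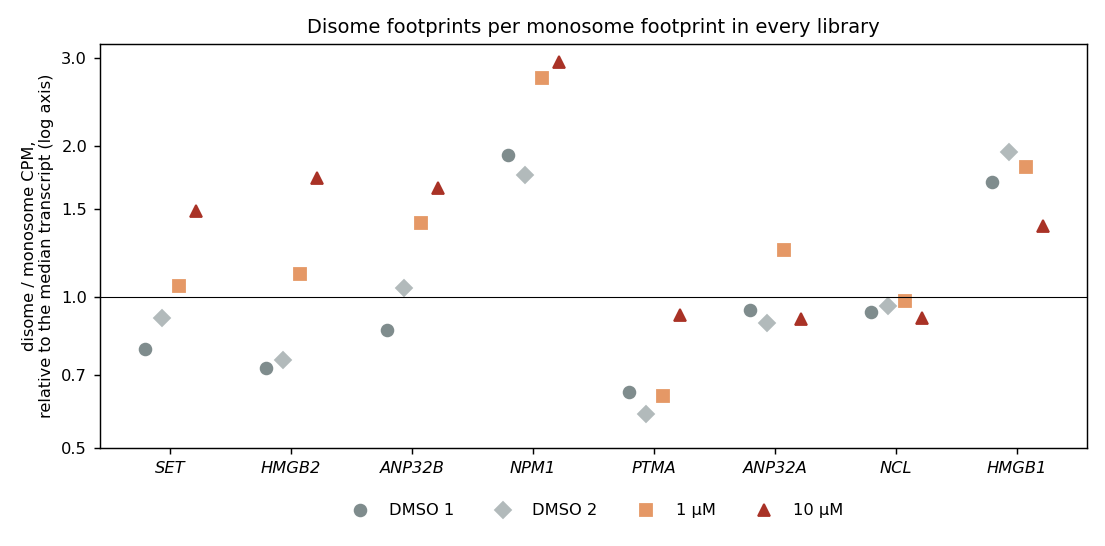
Disome over monosome scaled CPM of each gene, divided by the same ratio of the median transcript (log axis), in the library pairs DMSO 1, DMSO 2, 1 µM and 10 µM. DMSO libraries are paired by number only. Values of SET, HMGB2 and ANP32B climb through both doses, those of NPM1 are near 3 at 10 µM, and those of NCL stay close to 1.

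Against mRNA, disome footprints rose at 10 µM for SET, HMGB2 and ANP32B, 3 of 8 genes against 13.2% of 55625 transcripts, and fell for 0 of 8, against 7.68%. With the filter of 10 CPM, 4 of 8 were higher and 0 lower, against larger shares, 3009 and 2541 of 11620 transcripts. The log2 change was 1.85 ± 0.22 for SET (adjusted p = 4.15e-15), 1.63 ± 0.24 for HMGB2 (adjusted p = 1.29e-09) and 1.15 ± 0.27 for ANP32B (adjusted p = 0.000307). NPM1, at 0.48 ± 0.19, stood at the threshold (adjusted p = 0.0534) and passed in 7 of 11 alternative fits, among them a filter of 10 CPM (adjusted p = 0.0132), identical rows kept apart (adjusted p = 0.0499) and the joint fit (adjusted p = 0.0243). There it also passed without either RNA-seq DMSO library (adjusted p = 0.00422 and 0.0116) and without the first disome one (adjusted p = 0.00747), but not without the second (adjusted p = 0.114). At 1 µM SET, ANP32B, NPM1 and HMGB2 rose, 4 of 8 genes against 1.66%, and 0 of 8 fell, against 0.2%. Their log2 changes were 0.95 ± 0.22, 1.13 ± 0.27, 0.74 ± 0.19 and 0.83 ± 0.25, with adjusted p between 0.0026 for SET and 0.0466 for HMGB2. DESeq2 kept those of SET and ANP32B. In the same order of genes, the disome changes at 1 µM were 0.72, 0.70, 0.48 and 0.79. The mRNA changes, none of which passed the test, were -0.20, -0.41, -0.24 and -0.02. With the filter of 10 CPM, 4 of 8 genes were higher and 0 lower at 1 µM, against larger shares, 709 and 72 of 11620 transcripts. PTMA, at 0.68, did not pass at 1 µM (adjusted p = 0.128) but did in the joint fit (adjusted p = 0.044). No gene was lower at an unadjusted p under 0.05 or by DESeq2 at either dose.

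Monosome footprints per mRNA, often read as translational efficiency, passed the test at 10 µM for SET alone among the 8 genes. This fit also took 1 spread over both kinds, with a coefficient of variation of 9.02%, against 11.8% for mRNA alone. Its p-values may therefore be too small as well. SET rose by a log2 change of 0.88 ± 0.15 (adjusted p = 0.000664), which makes 1 of 8 higher against 5.34% of 56086 transcripts, and 0 of 8 lower against 3.89%. With the filter of 10 CPM, 1 of 8 was higher and 0 lower, against larger shares, 1468 and 1008 of 11091 transcripts. Unadjusted, NCL, NPM1 and PTMA were lower with a p under 0.05, at log2 changes of -0.34 ± 0.13, -0.36 ± 0.13 and -0.47 ± 0.18, and DESeq2 called 0 of 8 lower. Such a p was common, held in either direction by 12881 of the 56086 transcripts. At 1 µM the test called 0 of 8 genes, against 0.00178% of transcripts higher and 0% lower. Of the 56086 transcripts, 2236 had an unadjusted p under 0.05, among them SET, ANP32B and PTMA, all higher. Their monosome log2 fold changes at 1 µM were 0.32, 0.06 and 0.06 in turn. Their mRNA changes, none of which passed the test, were -0.20, -0.41 and -0.46. DESeq2 also called 0 of 8 genes at 1 µM. In the joint fit without the first RNA-seq DMSO library, SET passed at 1 µM (log2 change 0.57, adjusted p = 0.0446), and PTMA was lower at 10 µM (-0.68, adjusted p = 0.000154). Without the second, PTMA was higher at 1 µM (0.69, adjusted p = 0.00496) and NPM1 lower at 10 µM (-0.38, adjusted p = 0.0346).

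In cells given DMSO this ratio was highest for ANP32B among the 8 genes, with 2.84 and 2.88 times that of the median transcript in the DMSO libraries, above 97.9% of 11000 transcripts. At the treated doses it was 3.93 at 1 µM and 3.44 at 10 µM. SET was lowest, with 0.713 and 0.568 times the median under DMSO, above 18.3% of transcripts, then 0.9075 at 1 µM and 1.24 at 10 µM. SET thus passed from below to above the median transcript, and ANP32B stayed far above it throughout.

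The doses were then compared with each other in disome libraries. The 10 µM library was higher than the 1 µM library for SET, at a log2 fold change of 0.92 ± 0.18 (adjusted p = 2.66e-05), and for HMGB2, at 0.80 ± 0.21 (adjusted p = 0.00338). It was lower for ANP32A, given above, and for HMGB1, at -0.49 ± 0.17 (adjusted p = 0.0415). That is 2 of 8 genes higher, against 7.7% of transcripts, and 2 of 8 lower, against 4.36%. With the filter of 10 CPM, 2 of 8 were higher and 1 lower, against larger shares, 1689 and 930 of 12986 transcripts. ANP32B, at 0.48 ± 0.22 (adjusted p = 0.1485), NCL, PTMA and NPM1 did not pass. DESeq2 kept the call of SET alone, with adjusted p = 0.0907 for HMGB2 and adjusted p = 0.253 for HMGB1. Each dose is set against the same DMSO libraries in the comparisons before this one, so those share their controls.

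Within the HMGB and ANP32 pairs the genes are alike in length, 210 and 216 codons for HMGB2 and HMGB1 and 252 and 250 for ANP32B and ANP32A, and their counts were set against each other in each library. HMGB2 had 0.159 and 0.160 disome counts per HMGB1 count under DMSO, 0.276 at 1 µM and 0.674 at 10 µM, which is 4.22 times the DMSO ratio. The monosome ratio was 0.375 and 0.416 under DMSO, 0.451 at 1 µM and 0.540 at 10 µM, and the mRNA ratio 0.558 and 0.557 under DMSO, 0.6185 at 1 µM and 0.651 at 10 µM. At 10 µM the ratio lay above both DMSO values in all 3 kinds of library, by the most in disomes. ANP32B had 0.472 and 0.607 disome counts per ANP32A count under DMSO, 0.654 at 1 µM and 1.46 at 10 µM. The monosome ratio of this pair was 0.516 and 0.518 under DMSO, 0.579 at 1 µM and 0.796 at 10 µM, and the mRNA ratio 0.281 and 0.266 under DMSO, 0.227 at 1 µM and 0.298 at 10 µM. At 10 µM the ratio of ANP32B to ANP32A stood at 2.72 times its DMSO value in disomes, 1.54 times in monosomes and 1.09 times in mRNA. These ratios need no scaling between libraries, and no test was made of them.

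**Figure D4:**
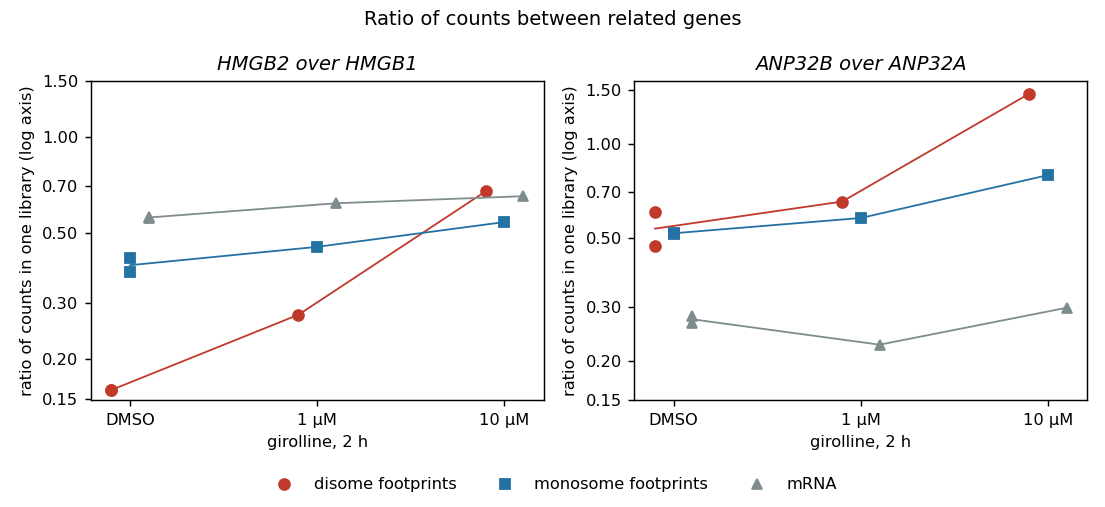
Count of HMGB2 divided by that of HMGB1 (left) and of ANP32B divided by that of ANP32A (right) in each library, by dose of girolline and kind of library (log axes); lines join the DMSO mean and the treated libraries. Disome ratios reach 0.674 and 1.46 at 10 µM, 4.22 and 2.72 times their DMSO values. The mRNA ratios move less, to 0.651 and 0.298, 1.17 and 1.09 times their DMSO values.

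Changes of this size were common among all transcripts. At 10 µM the disome log2 fold change of SET exceeded that of 91.6% of transcripts tested, that of HMGB2 91.0%, that of ANP32B 85.0% and that of NPM1 68.1%. PTMA exceeded 65.1%, ANP32A 40.2%, NCL 36.1% and HMGB1 30.4%. The 8 genes thus span much of the range of all transcripts. Coding length bears on the comparison, since 6 of the 8 genes, all but NCL and PTMA, have 200 to 299 codons. Among the 5447 tested transcripts of that length, disome footprints were higher at 10 µM for 28.3% and lower for 10.3%, and the median change was 0.26 on the log2 scale. For 1 µM, 7.62% of them were higher and 0.771% lower. The 4 genes called higher in disomes at 10 µM are among these 6, as is HMGB1, the gene called lower.

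**Figure D5:**
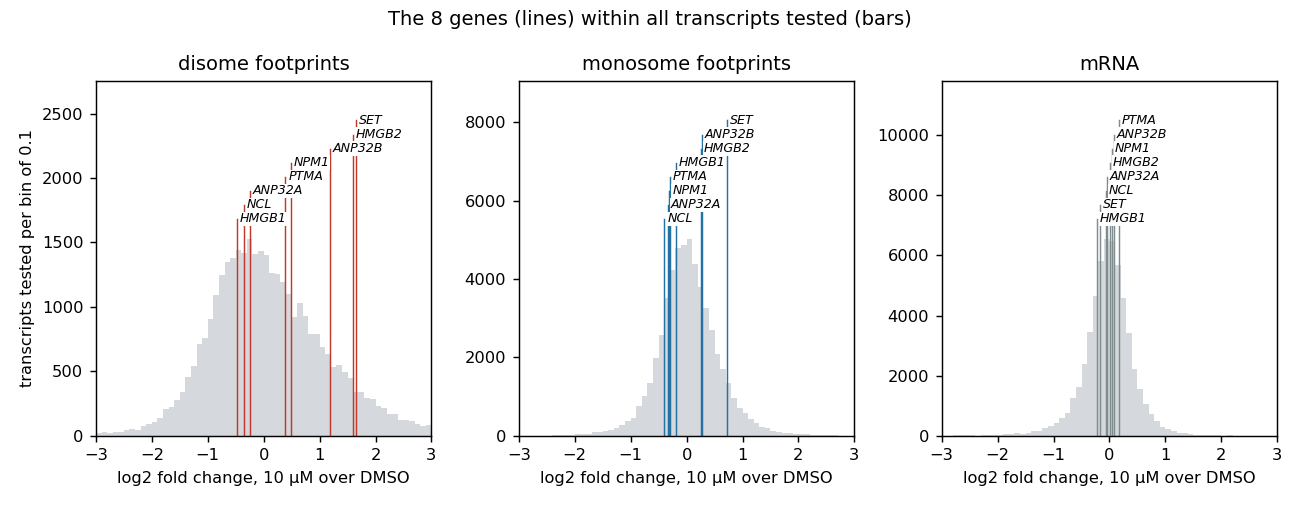
Distribution of the log2 fold change at 10 µM over DMSO of all transcripts tested (grey bars, bins of 0.1, axis limited to -3 to 3) in disome, monosome and mRNA libraries, with the 8 genes as labelled lines. In disomes the lines run from HMGB1 at -0.48 to SET at 1.65, in mRNA all lie between -0.22 and 0.16.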

How the data were processed

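For each library the authors deposited raw counts by transcript ID, beside a length and with no normalization. The build hg38, STAR 2.7.0a and CASAVA 1.8 are listed per the submitters' processing notes, with no role stated; the counting tool, annotation and handling of reads matching several places are not given in the sources used here. Per the labels' protocols, footprints came from RNase I digestion and RNA-seq from poly(A) RNA with a stranded kit.

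The length lies 20 codons below that of the disome tables in RNA-seq and 10 in monosome tables, so coding length was taken from the disome tables. Monosome tables carry Ensembl IDs and the others UCSC IDs. Rows were paired by coding length in file order: 68621 pairs were common to both traces of the longest common subsequence, 12993 lay between and 6300 within 20 rows of such pairs (NPM1 and PTMA, and NCL and ANP32A, were paired in these ways). Paired counts had a Spearman correlation of 0.935 between monosome and RNA-seq tables across transcripts, and 0.034 when shifted by 50 rows. The last 2 ways of pairing were added after the tables were seen, since the plain subsequence missed these genes.

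Identical rows were merged, and counts were fitted across all transcripts with edgeR 4.0.16 in R 4.3.3 (filterByExpr, TMM, quasi-likelihood test, Benjamini-Hochberg adjustment, FDR 0.05), with DESeq2 1.42.0 as an alternative. A fit of 1 kind (4 libraries) had 1 residual degree of freedom; ratios of kinds were interactions over 8 libraries with 2. All 8 genes passed the low-count filter in every fit. The fits were tested on simulated data, where those with mRNA libraries recovered fewer of the known changes than those of footprints alone, so a missing call weighs less there. The genes, lists and tests were chosen with earlier results of these data known. All 8 genes are named whether called or not. A list of related chaperones, transcripts with like patterns and protein features, which had been planned, were not analysed here, because no table used here pairs the IDs with names or gives proteins.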

Additional observations from a re-analysis of the deposited data

Results flagged for a closer look

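For 4 results, the disome and monosome changes of a gene ran in opposite directions and their difference passed edgeR's interaction test. The p-values of that test may be too small, as given above. NPM1 disome footprints were higher and monosome footprints lower at 10 µM, and the log2 change of the first relative to the second was 0.79 (adjusted p = 1.14e-06). At 1 µM the same gene gave 0.69 (adjusted p = 0.000145), where the monosome change of -0.18 did not pass on its own. PTMA at 10 µM gave 0.70 (adjusted p = 0.00073), from a disome change of 0.39 that did not pass on its own and a monosome change of -0.30 that did, though not in the joint fit of 12 libraries (adjusted p = 0.13). ANP32A at 1 µM gave 0.56 (adjusted p = 0.0358), from a disome change of 0.42 and a monosome change of -0.11 that did not pass on their own.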

How the results depend on the processing

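Of the alternative fits of single genes, 872 kept direction and call, 71 lost a call, 33 gained one and 20 changed sign, the last all in values that were not called in either fit. At 10 µM the disome calls of SET, HMGB2 and ANP32B held in all alternatives, and so did those of HMGB2, SET, ANP32B and NPM1 relative to monosomes. Disome libraries have the fewest counts, and with 1 library per dose the spread comes from the DMSO pairs; leaving out a DMSO library was done in a joint fit of 12 libraries, where the lone library left is assumed to vary like the others. The cause of the changes below was not tested. In monosomes, DESeq2, the joint fit and the fits without a DMSO library called fewer of all transcripts than the main fit, at both doses.

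Counts of the 8 genes that moved by over 1.5 times were as follows. Calls among all transcripts moved too. In monosomes at 10 µM, 9154 of 55409 transcripts were higher in the main fit, 1297 with DESeq2 and 4174 of 57615 in the joint fit. In disomes at 10 µM, 5172 of 34606 were lower in the main fit, 936 with DESeq2 and 5172 of 57615 in the joint fit. In disomes at 1 µM, 1867 were higher in the main fit, 270 with DESeq2 and 2105 in the joint fit. With DESeq2, monosome footprints at 10 µM were higher for 1 gene, monosome footprints at 1 µM higher for 0 and lower for 0, disome footprints at 10 µM lower for 0 and at 1 µM higher for 0. DESeq2 also gave 1 gene higher and 0 lower in disomes at 10 µM against 1 µM, 0 higher in disomes relative to monosomes at 1 µM and 2 higher in disomes relative to mRNA at 1 µM. In the joint fit, 1 gene was higher and 2 lower in monosomes at 10 µM, 0 higher and 0 lower in monosomes at 1 µM, 2 lower in disomes at 10 µM and 2 higher in disomes relative to monosomes at 1 µM. DESeq2's size factors gave 2 genes lower in monosomes at 1 µM and 2 lower in disomes at 10 µM, as did a filter of 1 count. A filter of 10 CPM gave 0 lower in monosomes at 1 µM, 1 lower in disomes at 10 µM against 1 µM and 1 lower in disomes relative to monosomes at 10 µM. Without merging, 0 were lower in monosomes at 1 µM. The plain subsequence paired 4 of the 8 genes, of which 3 were higher at 10 µM and 2 at 1 µM in disomes relative to monosomes.

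With each DMSO library left out in turn, 0 to 1 gene was higher in mRNA at 10 µM and 0 to 1 lower in mRNA at 1 µM. In monosomes 1 gene was higher and 0 were lower at 10 µM, and 0 were called at 1 µM, whichever library was left out. In disomes at 10 µM 2 were lower each time. Disome values were higher for 0 to 1 gene relative to monosomes at 1 µM and for 3 to 5 relative to mRNA at 10 µM. Monosomes relative to mRNA gave 0 to 1 lower at 10 µM and 0 to 1 higher at 1 µM.

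These values changed sign under some alternatives, and none of those of the opposite sign was called. HMGB2 mRNA at 10 µM was -0.0028 with a filter of 10 CPM, -0.00084 without merging and -0.0261 to 0.0392 leaving out a library, and at 1 µM -0.0453 to 0.0199. PTMA mRNA at 10 µM ran from -0.0132 to 0.37 and PTMA monosomes at 1 µM from -0.0282 to 0.15. HMGB1 disomes at 1 µM were -0.0069 with DESeq2's size factors, -0.0066 with DESeq2 and -0.0154 to 0.0843 leaving out a library. NPM1 disomes at 10 µM against 1 µM were 0.0073 with DESeq2's size factors and with DESeq2, and 0.0716 with a filter of 10 CPM. With that filter, disomes relative to monosomes at 10 µM were -0.0679 for NCL and -0.0180 for ANP32A, which ran from -0.0215 to 0.20 leaving out a library. HMGB1 monosomes relative to mRNA at 10 µM were -0.00050 with DESeq2's size factors, -0.00047 with DESeq2 and -0.0338 to 0.0726 leaving out a library, and ANP32A at 1 µM ran from -0.0251 to 0.0854.

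The labels do not say whether DMSO libraries of equal number belong together across kinds. Across transcripts, the differences between the DMSO libraries correlated at 0.07 between disomes and monosomes. The correlation was 0.28 between disomes and mRNA and -0.12 between monosomes and mRNA. With so few DMSO libraries per kind, these values cannot show whether libraries of equal number belong together. With the replicate block, 5 genes were higher at 10 µM and 3 at 1 µM in disomes relative to monosomes, ANP32A at 1 µM losing its call (0.55, adjusted p = 0.075). In disomes relative to mRNA the block gave 4 and 5 genes higher, with NPM1 at 10 µM (adjusted p = 0.0274) and PTMA at 1 µM (0.66, adjusted p = 0.0262) passing. No other call changed with it.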
